A study of Mus musculus with 62 samples.

Results

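The erythroid programme genes described here are Klf1, Zfpm1, Epor, Nfe2, Tfrc and Slc4a1, 6 of the 21924 protein-coding genes annotated on mm10 in GENCODE M21. The rule lists them by name and uses no measured value, although earlier results of these data were known when they were chosen, and a site was assigned to a gene when it shared at least 1 bp with the gene body or the 20 kb on either side. In 14 comparisons of CUT&Tag libraries, 542 of 1743368 listed sites lay at these genes. Zfpm1, the longest gene, held 244 of them, Slc4a1 86, Epor 72, Tfrc 50, Klf1 48 and Nfe2 42.

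CUT&Tag directs the Tn5 transposase with an antibody to chromatin that carries a protein or histone mark, and the DNA tagged there is sequenced. The cells were HSPCs, lineage-negative and c-Kit-positive bone-marrow cells enriched on magnetic beads from C57BL/6 mice. WT mice were Daxx +/+ Cre +/-, Daxx-KO mice were Daxx F/F Cre +/- and DKO mice were Daxx F/F and Pu.1 F/F with Cre +/-, so every group carried Cre. In the study's methods the floxed Daxx exons are 2 to 7, and Cre is induced in adult mice. The labels do not name the Cre line. By the methods the Pu.1 F/F mice were crossed with Daxx F/F mice carrying Mx1Cre, which is induced by injections of pI:pC. Daxx mice with RosaCreERT2, induced by tamoxifen, were also used in the study. The methods say that mice were usually treated at 5 to 11 weeks of age, without the age of each mouse. At 3 weeks post induction (w.p.i.) and at 24 w.p.i. Daxx-KO was compared with WT, with 2 libraries per group, for H3.3, Pu.1, H3K27ac and H3K9me3, and at 24 w.p.i. also for H3K27me3. At 8 w.p.i. there were 3 libraries per group, and the tables used compare Daxx-KO with WT and DKO with both for H3K9me3, and DKO with both for H3K27me3. By the labels the H3.3 and Pu.1 libraries at 3 w.p.i. came from the same mice, as did those for H3K27ac and H3K9me3, and 1 WT mouse gave all of these marks. All 5 antibodies at 24 w.p.i. were used on the same 4 mice, and the comparisons at 8 w.p.i. share libraries.

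Red cells form from haematopoietic progenitors under a small set of transcription factors led by Gata1, which is thought to oppose Pu.1, the factor that drives myeloid and lymphoid fates. Klf1 is the Krüppel-like factor that activates globin and membrane genes, Zfpm1 encodes Fog1, the cofactor of Gata1, and Nfe2 is a bZIP factor of erythroid cells and megakaryocytes. Epor is the receptor for erythropoietin, Tfrc encodes the transferrin receptor that takes up iron for haem, and Slc4a1 encodes band 3, the anion exchanger of the red-cell membrane, a late gene of the programme. H3.3 is the histone variant that Daxx deposits with Atrx, H3K27ac marks active promoters and enhancers, H3K27me3 marks Polycomb-repressed chromatin and H3K9me3 marks heterochromatin.

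The genes lie on 5 chromosomes of mm10. Klf1 is at chr8:84901928-84905291 on the plus strand and Zfpm1 at chr8:122282141-122337251 on the plus strand. Epor is at chr9:21958897-21963506 on the minus strand, Nfe2 at chr15:103248212-103258403 on the minus strand, Tfrc at chr16:32608920-32632794 on the plus strand and Slc4a1 at chr11:102348824-102366203 on the minus strand. The 20-kb flanks reach into other protein-coding genes everywhere except at Slc4a1. Klf1 has 4 such neighbours (Dnase2a, Gcdh, Mast1 and Syce2), Epor 3 (Plppr2, Rgl3 and Swsap1), Nfe2 3 (Cbx5, Copz1 and Hnrnpa1), Zfpm1 2 (Gm20388 and Trhr2) and Tfrc 1 (Tnk2).

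RefSeq promoter sequences, 250 bases before to 50 bases after a transcript start on GRCm38.p6, matched 4 of the 6 genes, namely Klf1, Zfpm1, Epor and Tfrc, and are shown because listed H3K27ac sites described below lie at or beside these starts. Each is given 5′ to 3′ on the strand of the gene. Capitals mark matches on either strand to 3 short motifs, namely AGATAA for Gata1 and its relatives, CCNCNCCC for Klf factors and GGAAGT for Ets factors such as Pu.1. Some Klf matches overlap each other. The core TGANTCA of the Nfe2 element was also looked for and matched in none of them.
Klf1 promoter, chr8:84901732-84902031, plus strand: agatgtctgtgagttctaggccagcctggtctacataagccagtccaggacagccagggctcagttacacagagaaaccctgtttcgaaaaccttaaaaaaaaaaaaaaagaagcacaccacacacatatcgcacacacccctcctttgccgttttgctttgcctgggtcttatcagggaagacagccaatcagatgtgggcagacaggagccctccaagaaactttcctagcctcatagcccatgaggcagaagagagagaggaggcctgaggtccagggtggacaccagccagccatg
Zfpm1 promoter, chr8:122281891-122282190, plus strand: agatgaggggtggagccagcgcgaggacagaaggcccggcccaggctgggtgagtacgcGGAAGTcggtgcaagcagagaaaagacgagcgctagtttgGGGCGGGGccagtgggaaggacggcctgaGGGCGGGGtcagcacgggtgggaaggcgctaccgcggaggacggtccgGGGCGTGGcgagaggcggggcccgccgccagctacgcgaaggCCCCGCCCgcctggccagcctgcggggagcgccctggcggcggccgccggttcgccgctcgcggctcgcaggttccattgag
Epor promoter, chr9:21963527-21963826, minus strand: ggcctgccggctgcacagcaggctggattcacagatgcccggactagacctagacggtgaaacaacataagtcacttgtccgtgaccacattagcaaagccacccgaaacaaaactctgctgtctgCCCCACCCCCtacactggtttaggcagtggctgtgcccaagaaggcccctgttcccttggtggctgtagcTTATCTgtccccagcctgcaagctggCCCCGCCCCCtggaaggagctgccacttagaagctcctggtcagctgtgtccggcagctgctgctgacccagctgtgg
Tfrc promoter, chr16:32608646-32608945, plus strand: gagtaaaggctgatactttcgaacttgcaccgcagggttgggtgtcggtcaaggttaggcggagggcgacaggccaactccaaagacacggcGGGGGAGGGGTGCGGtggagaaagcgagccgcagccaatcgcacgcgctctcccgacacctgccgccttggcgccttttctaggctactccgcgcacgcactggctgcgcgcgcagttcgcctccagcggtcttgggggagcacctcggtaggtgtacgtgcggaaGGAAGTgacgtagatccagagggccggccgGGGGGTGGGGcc
The Epor promoter held the only match to AGATAA, on its minus strand at positions -54 to -49 from the start, and 4 Klf matches. Zfpm1 had 4 Klf matches and 1 Ets match, Tfrc 5 Klf matches and 1 Ets match, and Klf1 no match to these strings. Variants of the motifs were not looked for, so a promoter without a match may still hold such an element. Of 32851 promoters of this length, 11.2% held AGATAA, 49.5% CCNCNCCC, 23.8% GGAAGT and 7.81% TGANTCA, so Klf matches were common everywhere. A match describes these letters only and is no evidence of binding.

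Values are the normalized counts deposited for each site and library, which are reads divided by a constant for the library. A site was called higher or lower when every library of one group lay above every library of the other and the ratio of the group means, each plus 1, was at least 2-fold. The log2 ratios are of these means, first group over second, and the added 1 lowers the fold ratios of sites with small counts. The tables list only sites that had passed the authors' window test, so each listed site was selected on the contrast it reports. That selection favours large ratios, most of all at small counts, and no test was made here. For 1 site, an exact two-sided permutation test cannot go below p = 0.333 with 2 libraries per group or below p = 0.100 with 3. Regions without a listed site have no value, and for this reason the HSPC label could not be checked on the level of defining markers. In these bulk libraries fewer cells of a type and less signal per cell cannot be told apart. Depth was between 1.21 and 33.78 mean reads per window in the 3-week libraries, between 0.2 and 3.29 in the 8-week libraries and between 3.97 and 10.3 in the 24-week libraries. In the H3.3 and Pu.1 libraries at 3 w.p.i., WT replicate 2 was shallow, with 3.06 and 2.75 mean reads per window against 22.88 and 33.78 for WT replicate 1. When reads were instead scaled by the mean reads per window (applied to single sites and to counts per gene only after the data were seen), the median log2 ratio over all listed sites moved by more than 0.1 in 13 of the 14 comparisons. The shift was 0.54 for H3K27ac and 0.32 for H3K27me3 at 24 w.p.i., 0.47 for H3.3, 0.36 for Pu.1 and 0.21 for H3K27ac at 3 w.p.i., 0.16 for H3.3 and 0.15 for Pu.1 at 24 w.p.i., -0.19 for H3K9me3 at 3 w.p.i. and between -0.51 and -0.18 at 8 w.p.i. Log2 ratios on these rescaled reads are given below where they end a call or stand beside a main result.

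H3K27ac was lower at most called sites of these genes in Daxx-KO, with Nfe2 the member that had more higher than lower called sites at 3 w.p.i. At 3 w.p.i. 33 of 47 listed sites were lower and 8 higher. Of all listed sites 57.4% were called lower and 37.7% higher, so the members' 70.2% lower lay above the background with the deposited normalization. Without the fold minimum, groups that did not overlap were lower at 33 sites and higher at 12, beside 58.2% and 39.4% of all sites. Lower sites were 6 of 6 at Klf1, 17 of 22 at Zfpm1, 2 of 2 at Epor, 3 of 3 at Slc4a1 and 2 of 3 at Tfrc, whereas Nfe2 had 4 higher and 3 lower of 11. On rescaled reads 25 of the 47 were lower and 11 higher, beside 54.6% and 40.3% of all sites, so the excess over the background was gone. Sites at protein-coding genes as a whole leaned lower too, with 34.6% of called sites higher (38% rescaled) against 19.5% at the members (30.6% rescaled). In such shares over many genes, a site in the windows of several genes counts once for each. The median log2 ratio of the members' sites was -1.75, close to the -1.80 of all listed sites. At 24 w.p.i. 42 of 86 sites were lower and 21 higher, beside 49.3% and 31.5% of all sites, which is no departure from the background. Groups that did not overlap were lower at 46 sites and higher at 36, beside 56.0% and 41.3%. This split depended on the scaling, since rescaled reads gave 18 lower and 38 higher, beside 30.5% and 41.4% of all sites.

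**Figure D1:**
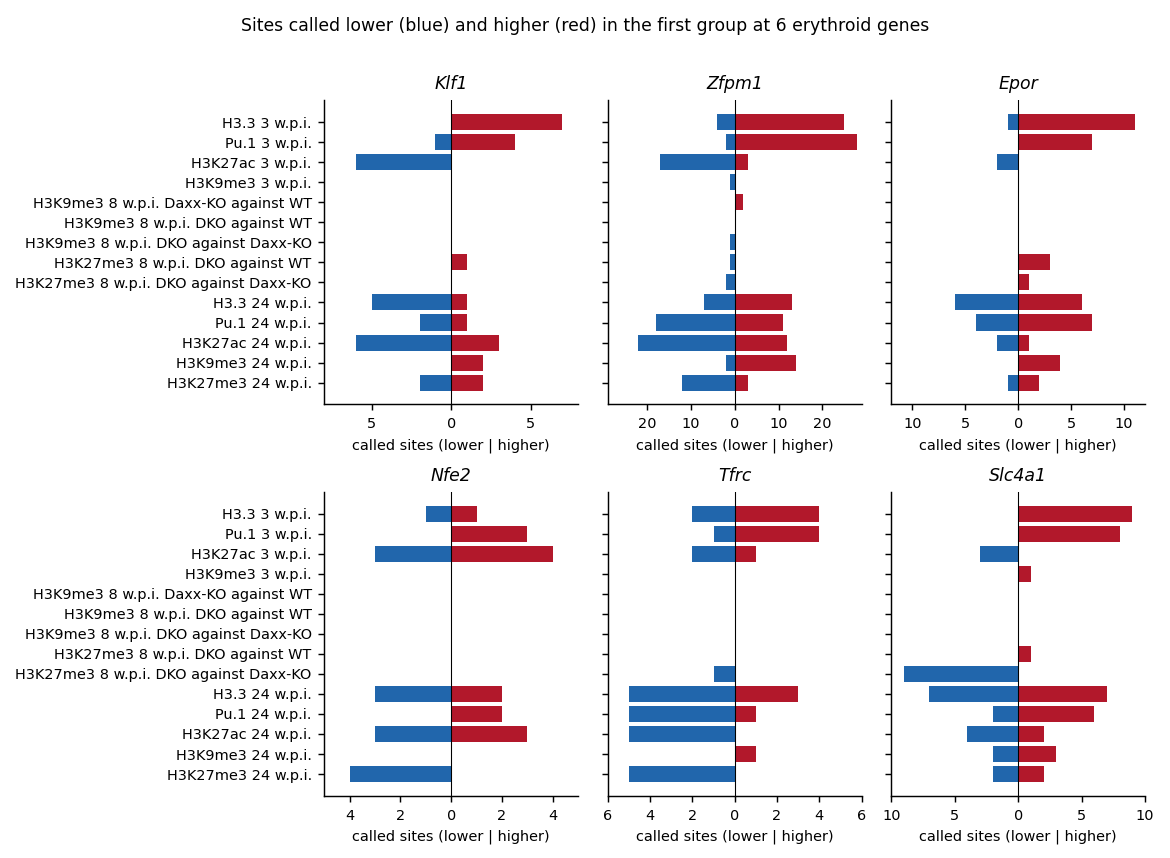
Number of sites called lower (blue, to the left) and higher (red, to the right) in Daxx-KO, or in DKO where named, at each gene in the 14 comparisons, on a horizontal scale that differs between genes. H3.3 and Pu.1 at 3 w.p.i. point to the right at Klf1, Zfpm1, Epor and Slc4a1, and H3K27ac at 3 w.p.i. points to the left at 5 of the 6 genes.

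H3.3 and Pu.1 were higher at most sites of these genes in Daxx-KO at 3 w.p.i. and split evenly at 24 w.p.i. For H3.3 at 3 w.p.i. 57 of 71 sites were higher and 8 lower, beside 54.0% and 37.5% of all listed sites. For Pu.1 at 3 w.p.i. 54 of 72 were higher and 4 lower, beside 47.4% and 38.2%, and the median log2 ratio of the members' sites was 1.27 against 0.93 for all. Rescaled reads gave 62 higher and 2 lower member sites for each antibody. Of all H3.3 sites 58.8% were then higher and 25.7% lower, and of all Pu.1 sites 54.3% and 24.4%. Sites at protein-coding genes as a whole, counted once for each gene window they lie in, leaned the same way. Of called H3.3 sites 68.2% and of called Pu.1 sites 65.5% were higher, against 87.7% and 93.1% at the members. Leaving out the shallow WT replicate 2 gave 86.8% and 90.7%. The shared direction of H3.3 and Pu.1 is not independent, since the same mice gave both. At 24 w.p.i. H3.3 was higher at 32 of 66 sites and lower at 33, beside 50.8% and 46.8%, and Pu.1 was higher at 28 of 61 and lower at 31, beside 46.3% and 50.8%. Those shares were near the background.

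H3K9me3 was listed at few sites of these genes until 24 w.p.i., when most were higher in Daxx-KO. At 3 w.p.i. 2 sites were listed, 1 higher and 1 lower, beside 77.6% and 20.0% of all sites. At 8 w.p.i. the 2 sites listed for Daxx-KO against WT were higher, beside 55.7%, the 1 site for DKO against Daxx-KO was lower, beside 23.8%, and none was listed for DKO against WT. At 24 w.p.i. 24 of 31 sites were higher and 4 lower, beside 40.8% and 42.3% of all sites, and the median log2 ratio was 2.48 against -0.70. Protein-coding genes as a whole also leaned that way, with 59.5% of their called sites higher, against 85.7% at the members. Zfpm1 gave 14 of the 24, and without it 10 were higher and 2 lower.

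H3K27me3 was compared at 24 w.p.i. for Daxx-KO and at 8 w.p.i. for DKO. At 24 w.p.i. 26 of 78 sites were lower and 9 higher, beside 42.5% and 24.3% of all sites. Groups that did not overlap were lower at 36 sites and higher at 36, beside 56.8% and 40.8%. Rescaled reads turned the balance to 18 lower and 21 higher, beside 27.5% and 35.6%. For DKO against Daxx-KO at 8 w.p.i. 12 of 17 sites were lower and 1 higher, beside 26.4% and 53.7%, with a median log2 ratio of -1.50 against 1.33 for all listed sites. Slc4a1 gave 9 of the 12 lower sites, Zfpm1 2 and Tfrc 1. The higher site was at Epor, and Klf1 and Nfe2 had no listed site, so this describes mainly the surroundings of Slc4a1. For DKO against WT 5 of 8 sites were higher and 1 lower, beside 45.3% and 37.3%.

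Slc4a1 had less H3K27ac at its 5′ end in Daxx-KO at both times, with the lowest log2 ratio among the called H3K27ac sites printed for the 6 genes near a start. At 3 w.p.i. a site of 1200 bp over an annotated start just inside the gene (chr11:102364651-102365850) had 5.81 and 4.25 normalized counts in Daxx-KO against 41.91 and 51.85 in WT. The Daxx-KO libraries lay far below the WT libraries, a log2 ratio of -2.99 that kept between -3.19 and -2.81 when a library was left out and was -2.73 on rescaled reads. At 24 w.p.i. a site of 4400 bp (chr11:102362501-102366900) had 167.85 and 166.86 in Daxx-KO against 707.09 and 796.6 in WT, a log2 ratio of -2.16, from -2.24 to -2.07 without a library and -1.60 rescaled. The mice of the 3-week and 24-week libraries differ by the labels. A second site upstream was lower at both times as well. At 3 w.p.i. it lay 7998 bases from the start (chr11:102374201-102375300), with 1.94 and 5.1 in Daxx-KO against 29.01 and 22.07 for WT, and at 24 w.p.i. an overlapping site (chr11:102374801-102376850) had 70.44 and 114.17 against 431.18 and 245.23. Their log2 ratios were -2.55 (-3.17 without Daxx-KO replicate 2) and -1.86. Over the members' starts, WT H3K27ac per kb at 24 w.p.i. was 171 at Slc4a1, below Nfe2 (703), Tfrc (627) and Zfpm1 (616) and above Klf1 (113), whereas in Daxx-KO Slc4a1 (38.04) and Klf1 (37.7) did not differ beyond their spread. At 24 w.p.i. 2 sites more than 13 kb upstream, nearer to Rundc3a, were higher.

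**Figure D2:**
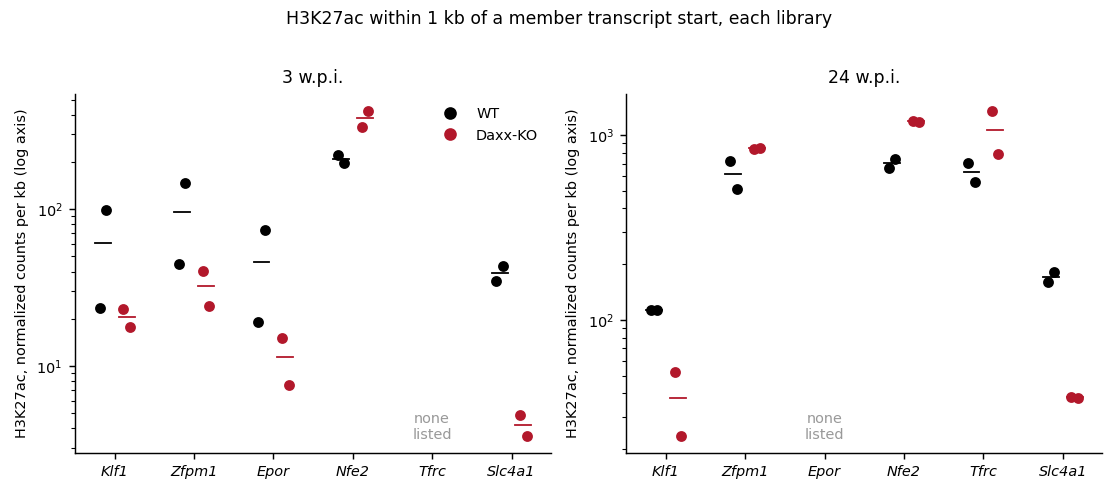
H3K27ac in each library at the strongest listed site within 1 kb of a transcript start of each gene, in normalized counts per kb on a log axis, at 3 w.p.i. (left) and 24 w.p.i. (right). Points are libraries (black WT, red Daxx-KO, 2 each) and lines are group means, with no site listed for Tfrc at 3 w.p.i. or Epor at 24 w.p.i. Slc4a1 and Klf1 lie lower in Daxx-KO at both times and Nfe2 lies higher, although the Nfe2, Tfrc and Zfpm1 sites at 24 w.p.i. and the Nfe2 site at 3 w.p.i. were under 2-fold and not called.

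Most listed H3K27me3 sites around Slc4a1 were higher in Daxx-KO at 24 w.p.i., but few were called. Of 14 listed sites, 10 had both Daxx-KO libraries above both WT libraries and 3 had them below, beside 40.8% and 56.8% of all sites. Only 2 in each direction were called. The called site with the most signal, upstream and nearer to Rundc3a (chr11:102384701-102385750), was lower. It had 78.97 and 34.96 in Daxx-KO against 138.17 and 122.79 in WT, a log2 ratio of -1.18, and was not called on rescaled reads. The strongest site within 1 kb of a transcript start, chosen after its values were seen (chr11:102358701-102360450), had 724.31 and 728.6 in Daxx-KO against 451.86 and 546.86 in WT, a log2 ratio of 0.54. On rescaled reads 5 sites were higher and none lower, beside 35.6% and 27.5% of all sites. In the comparison of DKO with Daxx-KO at 8 w.p.i., H3K27me3 was lower in DKO at 9 of 12 listed sites and higher at none. The strongest of those 9 (chr11:102384951-102386600) had 119.28, 34.18 and 35.98 in DKO against 135.08, 136.94 and 136.22 in Daxx-KO. DKO replicate 1 lay close to the Daxx-KO libraries there, and the log2 ratio of -1.10 was -1.93 without it, -0.80 without DKO replicate 2 and -0.82 without DKO replicate 3. Of the 12 sites, 10 lay 6 to 20 kb upstream of the gene and none lay over its start. For DKO against WT 1 site in the gene was higher (chr11:102354401-102355150), with 29.43, 42.8 and 25.06 in DKO against 9.62, 16.3 and 8.94 in WT, a log2 ratio of 1.41.

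**Figure D3:**
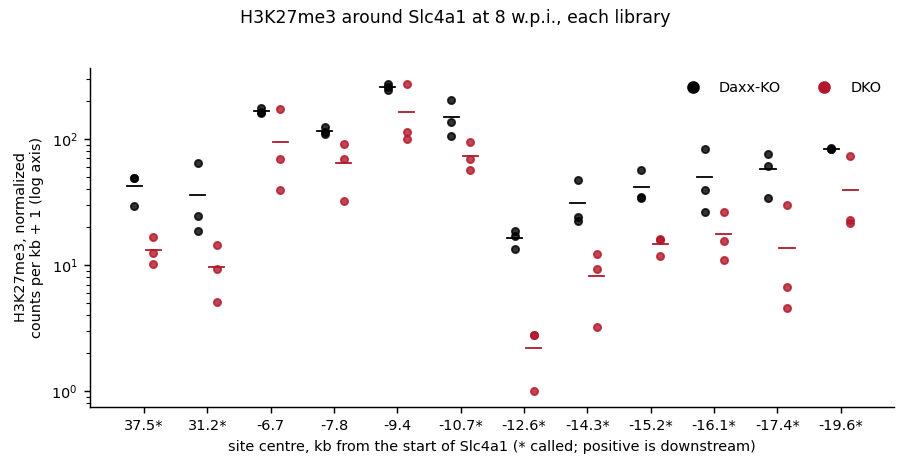
H3K27me3 in each library at the 12 listed sites around Slc4a1 in the comparison of DKO (red) with Daxx-KO (black) at 8 w.p.i., 3 libraries each, as normalized counts per kb plus 1 on a log axis, ordered by distance from the start of the gene. Lines are group means and an asterisk marks the 9 called sites. DKO means lie below the Daxx-KO means at all 12.

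H3.3 and Pu.1 around Slc4a1 were higher in Daxx-KO at 3 w.p.i., at 9 of 11 and 8 of 10 sites, with none lower. At the Pu.1 site over an annotated start (chr11:102364451-102365650) the values were 136.27 and 77.82 in Daxx-KO against 55.89 and 25.57 in WT. The groups did not overlap, and the log2 ratio of 1.37 fell to 0.92 without Daxx-KO replicate 1 and 0.93 without WT replicate 2 and rose to 2.02 without WT replicate 1. At 24 w.p.i. H3.3 over the 5′ end (chr11:102365201-102366300) was lower instead, with 16.56 and 2.26 against 57.19 and 152.3. That log2 ratio of -3.34 ranged from -5.02 without Daxx-KO replicate 1 to -2.59 without Daxx-KO replicate 2 and -2.48 without WT replicate 2. Over the gene, H3K9me3 at 24 w.p.i. was lower at a site 104 bases from a transcript start (chr11:102362751-102363600), with 7.65 and 26.06 against 107.26 and 59.03, a log2 ratio of -2.24 (-1.64 without Daxx-KO replicate 1 and -3.28 without Daxx-KO replicate 2). It was among the 4 members' sites with lower H3K9me3 at that time.

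Klf1 also carried less H3K27ac at 3 w.p.i., with 6 of 6 listed sites lower, beside 57.4% of all sites. At 24 w.p.i. 6 of 10 were lower and 3 higher, beside 49.3% and 31.5%, which is near the background. On rescaled reads 5 were lower and none higher at 3 w.p.i., and 4 lower and 3 higher at 24 w.p.i. At 3 w.p.i. the site in the gene body 473 bases after the start (chr8:84902401-84903450) had 24.22 and 18.69 in Daxx-KO against 24.72 and 103.71 in WT. WT replicate 1 was nearly level with Daxx-KO, so the log2 ratio of -1.54 rested on WT replicate 2. It was -0.20 without that library, -2.22 without WT replicate 1, and the rescaled groups overlapped. The strongest site elsewhere, 10723 bases after the start and nearer to Dnase2a (chr8:84912651-84913800), was lower in every library, with 3.88 and 6.8 against 25.79 and 36.41 and a log2 ratio of -2.34. At 24 w.p.i. the site over the start (chr8:84901251-84902000) had 38.96 and 17.56 in Daxx-KO against 84.9 and 84.64 in WT. The groups were apart, at a log2 ratio of -1.55 (-2.21 without Daxx-KO replicate 1), which rescaling reduced to -0.98, just under the fold minimum. Sites 978 bases before and 273 bases after the start were called lower as well, and the 3 higher sites lay about 10 kb or more downstream, nearer to Dnase2a and Mast1. One of these covered the site nearer to Dnase2a that was lower at 3 w.p.i.

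At the same start H3K27me3 was lower too, at a site 528 bases upstream (chr8:84900701-84901400) with 8.77 and 10.12 in Daxx-KO against 70.95 and 27.13 in WT. Its log2 ratio was -2.26, or -1.43 without WT replicate 1. Pu.1 at 3 w.p.i. was higher in the gene body (chr8:84902651-84903650), with 82.71 and 85.93 against 14.62 and 12.79. This was a clear separation, at a log2 ratio of 2.54 that stayed between 2.45 and 2.63 without any library. H3.3 overlapped that site and was higher, with 85.28 and 117.17 against 28.75 and 41.91, a log2 ratio of 1.49. By 24 w.p.i. 5 of 6 H3.3 sites at Klf1 were lower, among them the 3′ end of the gene (chr8:84905001-84905650) with 0.0 and 2.26 against 59.04 and 70.51. The log2 ratio of -4.95 there was -4.33 without Daxx-KO replicate 1 and -6.04 without Daxx-KO replicate 2, since so few reads remained.

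Zfpm1 was the member with the most sites, and the lower H3K27ac sites lay mostly in its introns, 13 of 17 at 3 w.p.i. and 13 of 22 at 24 w.p.i. Its listed H3K27ac sites of any direction also lay mostly in the gene body, 16 of 22 and 22 of 40. At 3 w.p.i. 17 of 22 sites were lower and 3 higher, and on rescaled reads 12 and 3. At 24 w.p.i. 22 of 40 were lower and 12 higher, and on rescaled reads 5 and 17, so the direction at 24 w.p.i. turned with the scaling. Over the start at 3 w.p.i. (chr8:122281601-122282200) the values were 24.22 and 14.44 in Daxx-KO against 26.86 and 88.26 in WT. WT replicate 2 again set the size of the difference, as the log2 ratio of -1.53 was -0.45 without it and -2.13 without WT replicate 1, and rescaled groups overlapped. At 24 w.p.i. the strongest site beside the start, chosen after its values were seen (chr8:122281301-122281900), had 504.29 and 509.36 against 431.18 and 307.72, a log2 ratio of 0.46 that was under the fold minimum and 1.02 on rescaled reads. The strongest lower site within the gene then (chr8:122311601-122313600) had 125.88 and 131.73 against 266.97 and 329.87, a log2 ratio of -1.21 and -0.65 on rescaled reads. Of 15 called H3K27me3 sites at 24 w.p.i. 12 were lower, the strongest near a start within the gene (chr8:122305751-122307150) with 25.53 and 34.96 against 90.56 and 114.23, a log2 ratio of -1.73. On rescaled reads 10 were lower and 6 higher. The called site with the most signal, upstream of the gene (chr8:122278101-122280300), was higher, with 578.33 and 435.14 against 219.4 and 259.87 and a log2 ratio of 1.08, or 0.86 without Daxx-KO replicate 1 and 0.96 without WT replicate 1.

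At the 3′ end of Zfpm1, within 1 kb of annotated transcript starts, several marks changed over the same few kilobases. H3K9me3 at 3 w.p.i. (chr8:122335301-122336450) had 0.0 and 3.33 in Daxx-KO against 19.25 and 21.45 in WT. It was lower in both Daxx-KO libraries, with a log2 ratio of -3.0 that was -2.30 without Daxx-KO replicate 1 and -4.42 without Daxx-KO replicate 2. At 8 w.p.i. an overlapping site (chr8:122335451-122336050) had 33.45, 13.79 and 16.04 in Daxx-KO against 9.48, 1.69 and 2.5 in WT, the opposite order. The log2 ratio of 1.99 was 2.84 without WT replicate 1, and rescaled libraries overlapped. In DKO at 8 w.p.i. (chr8:122334751-122336250) the values were 0.0, 6.54 and 1.46 against 31.76, 19.46 and 15.38 in Daxx-KO. The DKO libraries lay below, at a log2 ratio of -2.66 (-3.75 without DKO replicate 2), although 2 of them were the shallowest for this mark, with 0.69 and 0.20 mean reads per window. Both comparisons at 8 w.p.i. used the same Daxx-KO libraries.

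H3.3 in the same stretch was higher in Daxx-KO at both times. At 3 w.p.i. (chr8:122335451-122338900) it had 475.37 and 411.94 against 157.76 and 138.82, a log2 ratio of 1.57. At 24 w.p.i. (chr8:122334401-122335800) it had 185.47 and 106.39 against 10.15 and 0.0, the highest H3.3 among called sites beside a member start at that time. The log2 ratio of 4.60 was 3.72 without WT replicate 2 and 7.20 without WT replicate 1, as WT was close to 0. Pu.1 at 24 w.p.i. (chr8:122332551-122334400) was higher next to it, with 245.38 and 263.28 against 23.03 and 49.47 and a log2 ratio of 2.78 (3.41 without WT replicate 2). It was the 1 higher site of 4 Pu.1 sites near a Zfpm1 start, of which 3 were lower, and over the whole window 18 Pu.1 sites were lower and 11 higher. The strongest of the others (chr8:122295001-122296600) had 25.22 and 58.51 against 214.45 and 183.14, a log2 ratio of -2.22, or -2.93 without Daxx-KO replicate 2. In all, 11 of 16 pairs of overlapping H3.3 sites at Zfpm1 had the same direction at 3 and 24 w.p.i.

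At its strongest sites near a start, Nfe2 went the other way from Slc4a1 and Klf1. H3K27ac at 24 w.p.i. was higher in Daxx-KO over a stretch of 3950 bp (chr15:103253101-103257050), with 4673.45 and 4660.36 against 2613.88 and 2941.97. The difference was larger than the spread of the libraries but under 2-fold, at a log2 ratio of 0.75, so the site was not called, and it was chosen after its values were seen. On rescaled reads the log2 ratio was 1.31 and the site was called. At 3 w.p.i. the strongest site near the start, chosen in the same way (chr15:103257751-103258350), had 201.55 and 255.71 against 133.25 and 118.05, a log2 ratio of 0.86 and 1.12 rescaled. Of 11 listed sites at 3 w.p.i. 8 had both Daxx-KO libraries above WT and 3 below, beside 39.4% and 58.2% of all sites. Of 15 at 24 w.p.i. 10 were above and 4 below, beside 41.3% and 56.0%. Called sites were 4 higher and 3 lower at 3 w.p.i. and 3 and 3 at 24 w.p.i. The strongest called site at 24 w.p.i., upstream and nearer to Copz1 (chr15:103271551-103273450), was higher, with 805.51 and 630.85 against 382.03 and 271.33.

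H3K27me3 over Nfe2 was lower at 24 w.p.i. at all 4 listed sites, 3 of them within 1 kb of a start of an Nfe2 transcript. Over the start (chr15:103257751-103259050) the values were 111.68 and 97.51 in Daxx-KO against 209.13 and 374.09 in WT. Daxx-KO was lower in each library, at a log2 ratio of -1.47, or -0.99 without WT replicate 2. The others had log2 ratios of -1.26, -1.32 and -1.68, and on rescaled reads 3 of the 4 were still called lower. H3.3 at 24 w.p.i. was lower in the gene (chr15:103255151-103255850), with 0.0 and 6.79 against 54.43 and 33.84, where Pu.1 at 3 w.p.i. had been higher (chr15:103254701-103255850) with 90.58 and 77.01 against 41.26 and 19.18. Their log2 ratios were -3.36 (-2.53 without Daxx-KO replicate 1 and -5.50 without Daxx-KO replicate 2) and 1.44 (2.07 without WT replicate 1). No H3K9me3 site was listed at Nfe2 at any time, and no H3K27me3 site at 8 w.p.i.

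**Figure D4:**
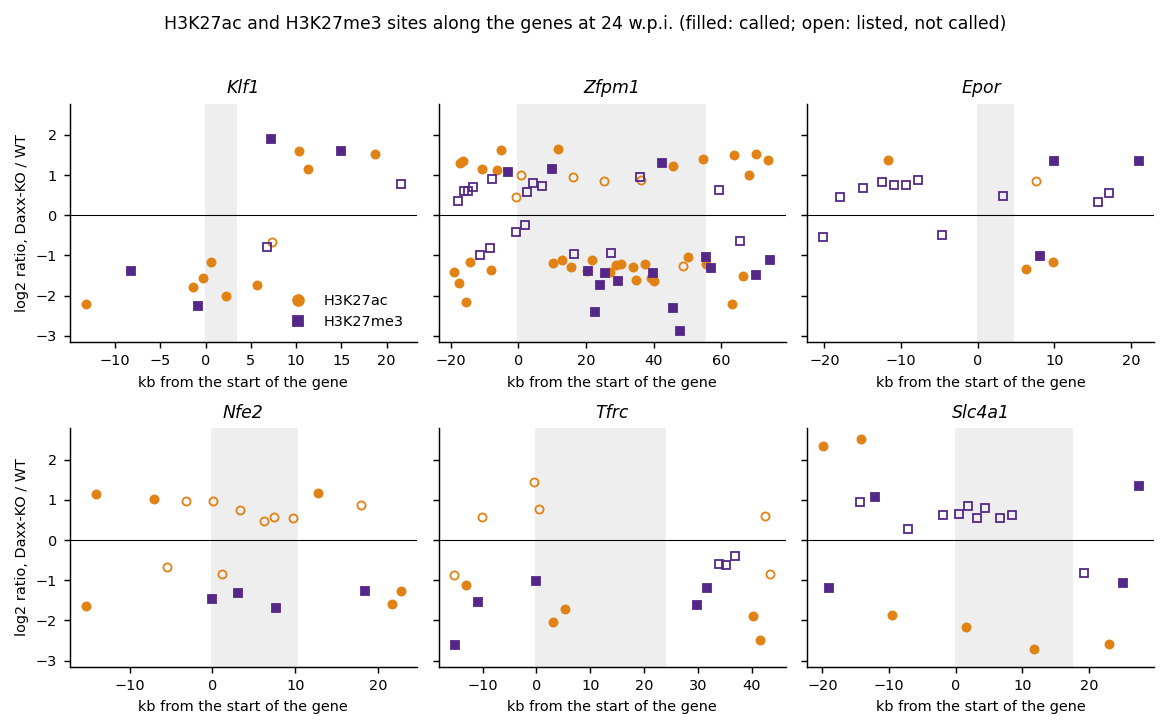
Log2 ratio of Daxx-KO to WT at every listed H3K27ac (orange circles) and H3K27me3 (purple squares) site at 24 w.p.i., by distance of the site centre from the start of the gene in kb, in the direction of transcription. Filled symbols are called and open symbols are listed but not called, and grey marks the gene body. Over Slc4a1 H3K27ac lies below 0 and H3K27me3 above 0, and over Nfe2 H3K27ac lies mostly above 0 and H3K27me3 below 0.

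Epor, the erythropoietin receptor, had 2 listed H3K27ac sites at 3 w.p.i., each over one of its 2 annotated starts and both lower. The site with more signal, over the inner start (chr9:21961751-21963100) had 20.35 and 10.19 in Daxx-KO against 25.79 and 99.29 in WT. As at Klf1, WT replicate 1 lay close to Daxx-KO, and the log2 ratio of -1.97 was -0.72 without WT replicate 2 and -2.62 without WT replicate 1, and rescaled groups overlapped. The other (chr9:21963251-21964400), given because it holds the promoter printed above, had 7.75 and 4.25 against 16.12 and 47.44. No H3K27ac site was listed near the start at 24 w.p.i., when 2 sites downstream were lower and 1 upstream higher. H3.3 was higher at 11 of 12 sites and Pu.1 at 7 of 8 at 3 w.p.i., but the H3.3 site over the inner start (chr9:21962051-21963100), with 44.22 and 56.01 against 32.25 and 5.24, rested on WT replicate 2. Its log2 ratio was 1.37, 0.62 without that library and 3.03 without WT replicate 1. At 24 w.p.i. Pu.1 was lower beside the inner start (chr9:21961951-21962550), with 0.0 and 2.09 against 30.22 and 70.52. The log2 ratio there was -4.65, from -5.68 without Daxx-KO replicate 2 to -4.06 without Daxx-KO replicate 1 and -3.93 without WT replicate 2. H3K9me3 at 24 w.p.i. was higher at 4 of 4 sites, all in the flanks 8 to 18 kb from a start, and the strongest (chr9:21943101-21944250) had 75.23 and 68.79 against 6.22 and 1.87, a log2 ratio of 3.86 (4.67 without WT replicate 1). H3K27me3 downstream of Epor was higher in DKO than in WT at 8 w.p.i. (chr9:21945951-21947050), with 52.08, 57.64 and 71.92 against 26.24, 19.02 and 25.71 and a log2 ratio of 1.32.

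Tfrc, the transferrin receptor, had H3K27ac that was higher over its start and lower within the gene at 24 w.p.i. Over the start, at a site chosen after its values were seen (chr16:32608801-32609800), it had 1353.25 and 784.53 in Daxx-KO against 700.38 and 553.74 in WT, a log2 ratio of 0.77 that was not called and 1.35 on rescaled reads. Within the gene (chr16:32613801-32614700) it had 12.74 and 29.27 against 102.77 and 38.76. That log2 ratio of -1.71 was -0.85 without WT replicate 1 and -2.38 without Daxx-KO replicate 2, and rescaled groups overlapped. H3K27me3 over the start (chr16:32608251-32609300) was lower, with 92.53 and 79.12 against 121.37 and 228.45. Its log2 ratio of -1.02 was -0.50 without WT replicate 2, -0.91 without Daxx-KO replicate 2 and -0.76 rescaled, so it was barely past the fold minimum. In all 5 of 8 H3K27me3 sites at Tfrc were lower and none higher.

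A region about 10 kb upstream of Tfrc was listed for all 5 antibodies and called for 4 of them. At 3 w.p.i. Pu.1 (chr16:32598151-32599350) had 155.17 and 93.22 in Daxx-KO against 17.76 and 6.39 in WT, and H3.3 (chr16:32598301-32599300) had 73.44 and 131.91 against 26.64 and 0.0. Both were higher, at log2 ratios of 3.26 (4.08 without WT replicate 1) and 2.86 (1.91 without WT replicate 2 and 6.70 without WT replicate 1). At 24 w.p.i. Pu.1 (chr16:32597651-32598650) was lower, with 25.22 and 7.31 against 125.22 and 64.2, and H3.3 (chr16:32597901-32599150) was lower, with 17.66 and 90.55 against 116.23 and 124.1. Those log2 ratios were -2.47 (-3.53 without Daxx-KO replicate 1 and -1.87 without Daxx-KO replicate 2) and -1.14 (-0.40 without Daxx-KO replicate 1 and -2.70 without Daxx-KO replicate 2). H3K9me3 at 24 w.p.i. (chr16:32598551-32599150) was higher there, with 18.49 and 65.66 against 1.55 and 1.87, and H3K27me3 (chr16:32597501-32598700) was lower, with 36.69 and 26.68 against 118.57 and 69.96. The H3K9me3 log2 ratio of 3.99 was 2.85 without Daxx-KO replicate 2 and 4.62 without Daxx-KO replicate 1, and the H3K27me3 log2 ratio was -1.54. The H3K27me3 site was chosen after its values were seen, as was the H3K27ac site there at 24 w.p.i., which was not called, with 185.83 and 203.45 against 127.34 and 135.27. The middle 300 bases of the Pu.1 site at 3 w.p.i. are shown because they are a TG repeat, with 245 of 300 bases G or T, a longest TG run of 44 bases and no match to the motifs above.
Tfrc upstream site, chr16:32598601-32598900, plus strand: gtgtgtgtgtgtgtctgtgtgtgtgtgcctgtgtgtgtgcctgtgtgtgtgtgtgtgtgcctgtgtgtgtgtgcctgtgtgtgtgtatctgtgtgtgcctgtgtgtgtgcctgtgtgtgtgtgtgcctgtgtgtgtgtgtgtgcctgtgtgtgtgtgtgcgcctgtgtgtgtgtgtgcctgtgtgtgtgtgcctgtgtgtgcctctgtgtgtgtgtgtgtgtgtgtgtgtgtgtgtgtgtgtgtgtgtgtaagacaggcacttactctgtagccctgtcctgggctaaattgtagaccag

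With the deposited normalization, the direction of a change at 3 w.p.i. carried over to 24 w.p.i. more often for H3K27ac than for H3.3 or Pu.1. Of pairs of overlapping called sites at the genes, 16 of 21 had the same direction for H3K27ac (76.2%, against 63.3% of 28244 such pairs over all listed sites). For H3.3 it was 16 of 33 (48.5%, against 51.2%) and for Pu.1 10 of 24 (41.7%, against 47.9%), and H3K9me3 had no pair. The H3K27ac count came largely from Zfpm1, with 11 of 13 pairs in the same direction, and 5 of 8 pairs at the other genes. Pairs were not recomputed on rescaled reads, on which the lower H3K27ac sites called at Zfpm1 at 24 w.p.i. fell from 22 to 5. The H3K27ac share may therefore depend on the scaling. Pairs within a gene share libraries and are not independent, and the difference between marks was not tested.

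**Figure D5:**
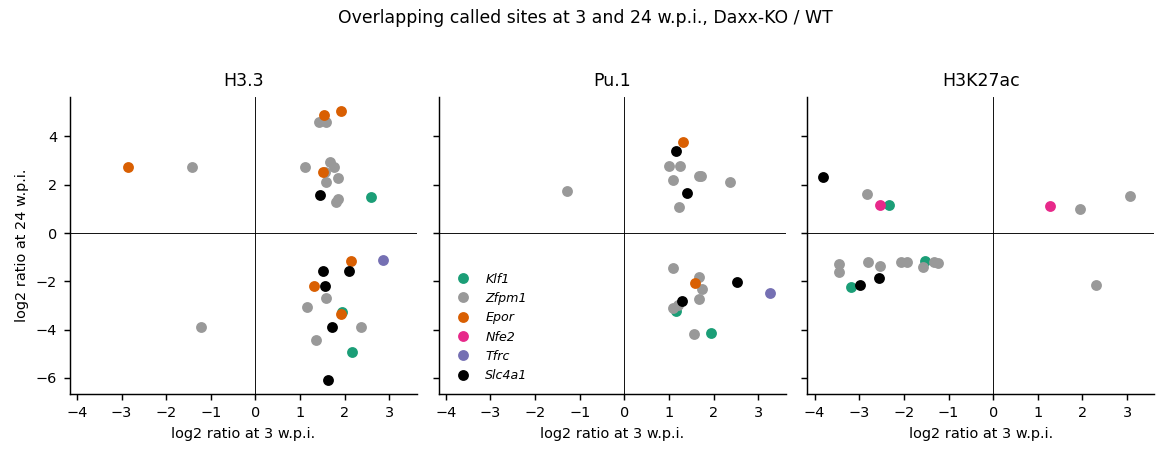
Log2 ratio of Daxx-KO to WT at 3 w.p.i. (horizontal) and 24 w.p.i. (vertical) for pairs of overlapping called sites, coloured by gene, for H3.3 (33 pairs), Pu.1 (24) and H3K27ac (21). Points in the upper right and lower left have the same direction at both times. H3.3 and Pu.1 points are nearly all to the right of 0 and fall above and below 0 at 24 w.p.i.

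The wider erythroid programme was described with 5 lists holding 72 annotated genes besides the members. At 3 w.p.i. 45 of the 72 had a called lower H3K27ac site within 1 kb of a start and 8 a higher site, which is 62.5% and 11.1% against 29.6% and 12.2% of all protein-coding genes. On rescaled reads these were 38 and 10, against 25.7% and 13.4% of all genes. Genes with lower promoter sites were 12 of 18 regulators, 5 of 9 erythropoietin-signalling genes, 10 of 18 haem and iron genes, 3 of 4 globin genes and 15 of 23 membrane and skeleton genes. At 24 w.p.i. 36 of the 72 had lower and 19 higher promoter H3K27ac, against 33.7% and 26.1% of all genes, and on rescaled reads 22 and 44, against 19.8% and 43.7%. Gata1 and Alas2 lie on chromosome X, which is left out at 24 w.p.i., so they could not be called but stay among the 72. All genes likewise include those of X and Y, so the shares at 24 w.p.i. are somewhat low. The balance turned with the scaling, as it did over all genes. The share of listed genes with lower promoter sites, 50.0% or 30.6% rescaled, was above that of all genes on either scale. The share with higher promoter sites, 26.4%, was close to that of all genes as deposited. On rescaled reads it was 61.1%, also above the 43.7% of all genes, so the excess was not limited to lower sites. The globin genes kept lower promoter sites at 4 of 4 genes on either scale. Added over the genes, they had 24 lower and 3 higher sites (17 and 3 rescaled). The lower sites were 11 at Hba-a1, 7 at Hba-a2 and 3 each at Hbb-bs and Hbb-bt. Hba-a1 and Hba-a2 are neighbours, as are Hbb-bs and Hbb-bt, so a site in both windows counts for each. The 4 genes are therefore not independent. Rescaling left more lower than higher sites at membrane genes (135 and 114) and turned the balance at regulators (85 lower and 150 higher), erythropoietin-signalling genes (51 and 106) and haem and iron genes, where 55.8% of called sites were then higher. Of called sites at all protein-coding genes 40% were higher, and 62.0% rescaled. By list, 9 of 18 regulators, none of 9 erythropoietin-signalling genes, 9 of 18 haem and iron genes and 14 of 23 membrane and skeleton genes had lower promoter H3K27ac at 24 w.p.i. Fech, the last enzyme of haem synthesis, named here after its values were seen, had 4 lower promoter sites at 3 and at 24 w.p.i., with 9 and 12 lower sites in all, beside no higher site at 3 w.p.i. and 4 at 24 w.p.i., 1 of them at a promoter. Genes with the most called H3K27ac sites were Cd47 (16 higher, 12 lower) and Lyn (15 and 12) at 3 w.p.i., and Lyn (12 and 28) and Sptb, which encodes beta spectrin (11 and 22), at 24 w.p.i. H3K27me3 at 24 w.p.i. was lower at the promoters of 34 of the 72 genes and higher at 6, against 30.1% and 7.96% of all genes, and 27 and 11 on rescaled reads, against 20.0% and 12.1%. Ank1, which encodes ankyrin, had 14 higher and 16 lower sites for that mark and Sox6 11 and 14. In DKO at 8 w.p.i. Tmod1, a capping protein of the membrane skeleton, had the most called sites against WT, with 16 higher and none lower, and against Daxx-KO it had 15 and 1, after Sox6 with 7 and 10.

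Sites at markers of other blood cells were called beside these genes, where 34.6% of called H3K27ac sites at all protein-coding genes were higher at 3 w.p.i. and 40% at 24 w.p.i. (62.0% rescaled). H3K27ac at 12 neutrophil genes was higher at 46 sites and lower at 25 at 3 w.p.i., and higher at 75 and lower at 18 at 24 w.p.i., and at 7 stem and progenitor genes it was higher at 72 and 64 and lower at 21 and 44. At the 7 late erythroid markers, all of which are also in the erythroid lists, it was higher at 8 and lower at 23 at 3 w.p.i., and 7 and 26 at 24 w.p.i. Of those 26, Hba-a1 gave 11, Hba-a2 7 and Hbb-bt 3, with a site in shared windows counted for each gene. Alas2, on chromosome X, could have no site at 24 w.p.i. Megakaryocyte genes had 13 higher and 38 lower, then 35 and 42, and monocyte and macrophage genes 21 and 22, then 31 and 59. B-cell genes had 26 and 15, then 35 and 35, and T-cell genes 2 and 21, then 12 and 29. On rescaled reads at 24 w.p.i. the late erythroid markers stayed lower (7 higher and 17 lower) and neutrophil genes higher (139 and 8), whereas the direction turned for monocyte (46 and 30), megakaryocyte (48 and 28) and T-cell (17 and 16) genes, as over all genes, and B-cell genes went from an even split to 39 and 25. The part of a shift between cell types in the values at the 6 genes was not tested.

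Other genes had counts much like those of the members over the 14 comparisons. With called higher minus called lower sites per comparison as the measure, the closest of at least 21379 genes to Klf1 was Smpd4 (Pearson r = 0.96 over 14 comparisons), to Zfpm1 Capn15 (0.99), to Epor Grwd1 (0.97), to Nfe2 Mlkl (0.94), to Tfrc Zfp358 (0.99) and to Slc4a1 Brs3 (0.93). The comparisons share mice and a direction over all sites, so these values describe likeness only, and Brs3 lies on chromosome X, which the 24 w.p.i. tables leave out.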

How the data were processed

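CUT&Tag libraries of HSPCs were compared for H3.3, Pu.1, H3K27ac, H3K9me3 and H3K27me3, with 54 of 62 libraries used and 8 DKO libraries at 24 w.p.i. not analysed here. The authors trimmed reads with cutadapt, aligned them with STAR to mm10 and ran diffReps 1.55.6 (tools as in the submitters' processing notes and the file headers) with windows of 600 bp, steps of 50 bp, fragments of 100 bp and a window cutoff of p = 0.0001. For every listed site the deposited tables hold a normalized count per library, which the authors made by dividing reads by a constant for that library. The 24 w.p.i. tables leave out chromosomes X and Y. Columns with the authors' fold changes, p-values, adjusted p-values and direction were not used. H3K9me3 control libraries are in a table labelled as H3K27me3 for Daxx-KO against WT at 8 w.p.i., which was left out.

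Sites were joined to GENCODE M21 genes with 20 kb flanks, and a site near a start lay within 1 kb of the start of any transcript of the gene, internal starts included. Site counts over gene lists and over all protein-coding genes add the genes, so a site in several windows counts for each. Calls needed groups that did not overlap and a ratio of at least 2 with a pseudocount of 1. Because the tables list sites selected on the same contrast, no test was run, and the precision of a site is that of its reads in 2 or 3 libraries. Up to 2 called sites were named per gene and comparison, the one with the highest mean of the higher group near a start and the same elsewhere, and sites outside this rule are said to be chosen after their values were seen. The members and lists were chosen with earlier results of these data known. Ahsp was not in the annotation, so 72 of 73 listed erythroid genes were used. RefSeq promoters on GRCm38.p6 were identical to the mm10 genome in 5 of 5 cases. Counting was tested on simulated data. Other folds, pseudocounts, flanks, a minimum mean, scaling by mean reads per window and leaving out each library were tried. Python 3.11.15, numpy 2.4.6, pandas 2.3.3 and matplotlib 3.10.9 were used.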

Additional observations from a re-analysis of the deposited data

Results flagged for a closer look

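In 3 cases the sites named for a gene and mark at 2 times overlapped each other and had opposite directions, with no overlap between the groups at either time, and the difference was not tested. Such changes were common among overlapping called sites, with 36 opposite pairs of 78 at the genes between 3 and 24 w.p.i. About 10 kb upstream of Tfrc the H3.3 log2 ratio of Daxx-KO to WT was 2.86 at 3 w.p.i. and -1.14 at 24 w.p.i., and the Pu.1 log2 ratio was 3.26 and -2.47. At the 3′ end of Zfpm1 the H3K9me3 log2 ratio was -3.0 at 3 w.p.i. and 1.99 at 8 w.p.i. The 3-week H3.3 and Pu.1 values came from the same mice, and the WT replicate 2 libraries among them had 3.06 and 2.75 mean reads per window.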

How the results depend on the processing

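Of 127 recomputed summary values 103 stayed within the 95% binomial interval of a share or 1.5 times a count, and 24 moved. The interval takes sites as independent, which sites of a gene from the same libraries are not. It is also wide where few sites were called, so these counts do not show that the shares are stable. Of 618 recomputed log2 ratios at 99 named sites 588 moved by less than the spread between libraries and 30 moved by more. With 2 or 3 libraries per group that spread is wide, so a move within it can still be large. None of the called ones changed sign. Groups that do not overlap keep their order when a library is left out or the pseudocount is changed, so only rescaling could have reversed one. The share of called member sites that were higher (in DKO or Daxx-KO) moved on rescaled reads to 96.9% for H3.3 at 3 w.p.i., 67.9% for H3K27ac and 53.8% for H3K27me3 at 24 w.p.i. and 0.0% for H3K27me3 in DKO against Daxx-KO, from 87.7%, 33.3%, 25.7% and 7.69%. With a fold of at least 4 it was 100% for Pu.1 at 3 w.p.i., 18.2% for H3K27ac at 24 w.p.i., and 0.0% for H3K9me3 at 3 w.p.i., H3K27me3 at 24 w.p.i. and DKO against Daxx-KO, and 50.0% for H3K27me3 at 24 w.p.i. with no fold. Without flanks it was 100% for Pu.1 at 3 w.p.i. and for H3K27me3 in DKO against WT, 0.0% for H3K27ac and H3K9me3 at 3 w.p.i., 28% for Pu.1, 12.5% for H3K27ac and 13.3% for H3K27me3 at 24 w.p.i. H3K9me3 at 3 w.p.i. was also 0.0% with a minimum mean of 20, and DKO against Daxx-KO 0.0% with a pseudocount of 5 or nearest genes only. The count of 438 called sites was 191 with a fold of 4, 176 without flanks and 806 with 50 kb flanks, and the share of pairs with the same direction at 3 and 24 w.p.i. was 30% with a fold of 4, from 53.8%. The shift under rescaling follows from the changed scale, and the cause of the other shifts was not tested.

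Leaving out a library gave shares from 0.0% (without DKO replicate 2, DKO replicate 3 or Daxx-KO replicate 1) to 7.69% for H3K27me3 in DKO against Daxx-KO, where 1 site was called higher. No paired analysis was possible because the result comes from no test. With 2 or 3 libraries per group, sites with few reads, such as H3K9me3 at 8 w.p.i., carry large counting error, and regions not listed have no value.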
